A study of Mus musculus with 12 samples.

Results

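The genes described are 10 members of the YAP and TEAD pathway, among 25239 gene symbols in each of 2 count tables, and all 10 were found by symbol in both tables. They are the secreted matrix proteins Ccn1 and Ccn2, the scaffold genes Amotl1 and Amotl2, the LIM protein gene Ajuba, the kinase gene Lats2, the receptor gene Axl, the coactivator genes Yap1 and Wwtr1, and the transcription factor gene Tead1. RNA came from mouse heart cardiomyocytes, which the labels' protocols describe as cultured, in 12 libraries that form 4 groups of 3. The groups are Ctrl and Chaf1a cko in one table, called the first set here, and Ctrl 3M and Chaf1a cko 3M in the other, called the 3M set. In both Chaf1a cko groups the recombinase Myh6-Cre, expressed from a cardiomyocyte promoter, cuts the floxed alleles of Chaf1a; per the series text, Ctrl mice have the floxed alleles too but no Cre. Genotype and presence of Cre therefore cannot be told apart. The genotype label of Ctrl reads WT, 3M is not spelled out, and neither ages nor strains are labelled. The protein made from Chaf1a is part of a histone chaperone complex that loads histones behind the replication fork. Whether the 3 libraries of a group are separate animals or cultures is not labelled. The p-values set the difference between groups against the spread between libraries of a group, and that spread may be technical.

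YAP (Yap1) and TAZ (Wwtr1) are coactivators that enter the nucleus, bind TEAD factors such as TEAD1 on DNA and switch on target genes. The Hippo kinases, which end in LATS1 and LATS2, phosphorylate YAP and TAZ and hold them in the cytoplasm. Several genes of the pathway are both regulators and targets: Lats2, Amotl2 and Ajuba feed back on YAP while being counted among its targets. In the heart, YAP with TEAD1 is known for its part in cardiomyocyte proliferation before and shortly after birth. Ccn1 and Ccn2 are the most widely used readouts of YAP and also respond quickly to serum and mechanical stress, like the immediate early genes.

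Promoters are shown for 2 of the 3 members that fell in the first set. They were chosen because each holds the TEAD core motif CATTCC shortly before the start site of its promoter entry. RefSeq sequences (GRCm38.p6) run from 250 bases before to 50 bases after that start, 5′ to 3′ on the gene's strand. The promoter of Ccn1 lies at chr3:145649936-145650235 (minus strand) and that of Amotl2 at chr9:102717554-102717853 (plus strand), with the core motif in capitals.
Ccn1: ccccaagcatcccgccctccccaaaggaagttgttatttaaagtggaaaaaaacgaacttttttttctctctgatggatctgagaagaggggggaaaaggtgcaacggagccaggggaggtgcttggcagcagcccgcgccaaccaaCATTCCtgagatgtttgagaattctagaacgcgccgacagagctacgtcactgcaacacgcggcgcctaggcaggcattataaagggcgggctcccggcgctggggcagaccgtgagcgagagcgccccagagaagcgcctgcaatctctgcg
Amotl2: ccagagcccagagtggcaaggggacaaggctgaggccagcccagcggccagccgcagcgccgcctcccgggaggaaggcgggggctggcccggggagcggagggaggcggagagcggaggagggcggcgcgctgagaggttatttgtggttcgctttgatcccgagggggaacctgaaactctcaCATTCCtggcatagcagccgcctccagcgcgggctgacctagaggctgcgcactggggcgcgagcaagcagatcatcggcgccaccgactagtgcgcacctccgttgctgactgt

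In Ccn1 the core occupied bases 98 to 103 before the start, and in Amotl2 bases 60 to 65 before it. Both matches were on the gene's strand. The start site of the Amotl2 entry lies inside the gene's annotated span, which begins at chromosome 9 base 102717091. Its core, at 102717739 to 102717744, is therefore inside that span as well. Ccn1 also held a TATAAA match at bases 20 to 25 before the start. The other matches are given as windows of 10 bases on either side, which show how the flanks differ between members that did not pass the test.
Ajuba, far match: ttgatggataCATTCCacagtgcccc
Ajuba, near match: cccctccgcgCATTCCaactgtaaac
Lats2: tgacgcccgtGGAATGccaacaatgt
Axl: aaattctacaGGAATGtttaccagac
Yap1: ggagtctgcaGGAATGtagcgacgcg
Wwtr1: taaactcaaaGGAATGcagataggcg

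Capitals in these windows mark CATTCC, or GGAATG where the core lies on the other strand. Ajuba held a pair of cores, at bases 159 to 164 and 181 to 186 before the start. The Lats2 core lay at bases 5 to 10 after the start of 1 of its 2 promoters in the table, and the other promoter held none. Axl had its core at bases 228 to 233 before the start, and in Yap1 it lay at chr9:8004732-8004737, with its nearest base 136 bases before the start. In Wwtr1 the core lay at chr3:57576041-57576046, with its farthest base 136 or 170 bases before the start, depending on which of 2 start sites is taken. The Amotl1 promoter with an entry, at chr9:14614951-14615250 (minus strand), held no match. It lies far inside the gene, whose annotated span starts at base 14662974 on that strand, and the sequence before that base was not searched. Entries of Lats2, Axl and Yap1, and 1 of the 2 entries of Wwtr1, also start inside their spans. Ccn2 and Tead1 have no entry in the promoter table. In all, 7 of the 8 members with an entry held the core on either strand in at least 1 promoter, against 16.6% of the 27025 genes of the table and 14.7% of its 32851 promoters. The other motifs searched on both strands were the AP-1 motif TGANTCA and the CArG box, present in 7.8% and 1.6% of promoters, and no member held either, while TATAAA was present in 13.6%. None of the motifs overlapped another in these windows. A match describes letters and not a bound site, and the members are targets and regulators chosen by name. The members' promoters had a median GC content of 61.5%, against 52.7% over the whole table.

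**Figure D1:**
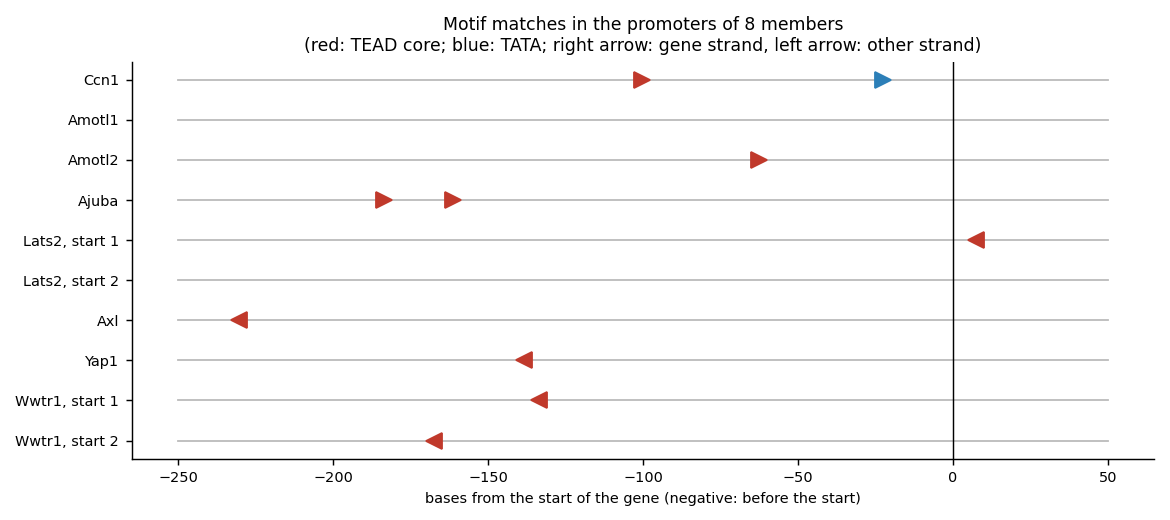
Position of motif matches in the promoters of 8 members, with 1 line per promoter. The x axis, labelled start of the gene, gives bases from the start site of each promoter entry. Red arrows are the TEAD core and the blue arrow is the TATA motif, pointing along the gene's strand or against it, and 7 of the 8 members hold at least 1 red arrow.

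Depth and library checks bear on all values below. The first set held 15068468 to 20896673 counts per library and the 3M set 10569325 to 16445963. Chaf1a, the targeted gene, had 22.7, 32.3 and 18.8 CPM (Ctrl) and 29.0, 24.5 and 22.0 CPM (Chaf1a cko), and 1.88, 4.74 and 9.75 CPM (Ctrl 3M) and 8.34, 5.58 and 5.54 CPM (Chaf1a cko 3M). A fall of its transcripts was thus not seen under the Chaf1a cko label. Their log2 fold change was 0.03 (95% interval -0.36 to 0.42) in the first set and 0.25 (-1.13 to 1.62) in the 3M set. Directions are therefore those of the labels. Counts are per whole gene, and which exons are floxed is not stated in the labels. Reads also covered genes of smell, pheromone and taste receptors in the first set, where 94.8% to 97.5% of these 1527 chemoreceptor genes had counts in a library, against 1.18% to 1.64% in the 3M set. Their median per exon length there reached 0.547 CPM per kb and the 95th percentile 2.77 CPM per kb, where CPM stands for TMM-scaled counts relative to library size. All 10 members lay above this 95th percentile in both groups of the first set. Chaf1a lay close to it, at 2.78 (Ctrl) and 2.84 (Chaf1a cko) CPM per kb. In the 3M set the median and the 95th percentile of the chemoreceptor genes were 0. Chaf1a was there at 0.616 (Ctrl 3M) and 0.733 (Chaf1a cko 3M) CPM per kb. Whether background reads hid a fall of its transcripts was not tested. The 4 Y-linked genes, all called higher, had summed levels of 50.7 to 60.6 CPM (Ctrl) and 111 to 135 CPM (Chaf1a cko) in the first set, so a difference in sex mixture cannot be told apart from genotype there. The same genes in the 3M set summed to 404 to 644 CPM (Ctrl 3M) and 355 to 398 CPM (Chaf1a cko 3M), apart in the other direction; 0 of 4 passed in edgeR, 1 had an unadjusted p under 0.05, and DESeq2 called 1 (Ddx3y, lower). All 13 cardiomyocyte markers were detected in every group, led by Myh6, Ttn and Myh7 in the first set.

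The targets Ccn1, Amotl2 and Ccn2 fell in the libraries labelled Chaf1a cko of the first set, and the other 7 members did not pass the test. Falls were modest, from 16.4% to 31.1% of the Ctrl mean. These 3 calls among 10 members stand beside 1.18% of the 22965 genes tested that were called in either direction and 0.435% that were called lower (edgeR's quasi-likelihood test, adjusted p under 0.05 over all genes tested). No member rose, also by DESeq2's Wald test. The 3 that fell were the only members with an unadjusted p under 0.05 in edgeR, against 2326 of the 22965 genes tested. The same 3 were the only members whose CPM ranges did not overlap between groups, against 16.2% of all genes tested, or 7.85% that were apart and lower. Fewer cells of a type and less RNA per cell cannot be told apart in these bulk samples. The members' median log2 fold change was -0.03 and that of all genes -0.01.

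Ccn1 (Entrez gene 16007, mm10 chromosome 3 from 145646971 to 145649985) encodes a secreted matrix protein that binds integrins and is a direct YAP target. Ctrl replicates 1, 2 and 3 read 322, 316 and 329 CPM, and Chaf1a cko replicates 1, 2 and 3 read 220.1, 210.4 and 235 CPM. Every Chaf1a cko library lay below every Ctrl library, and the gap between the groups was wider than the range within either. Means came to 322 ± 6.21 and 222 ± 12.6 CPM (SD, n = 3 each), a log2 fold change of -0.54 (SE 0.05, 95% interval -0.65 to -0.42, adjusted p 1.6e-05 in edgeR). Leaving out any 1 library kept the call, at -0.58 to -0.50.

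Amotl2 (Entrez gene 56332, chromosome 9 from 102717091 to 102733418) encodes an angiomotin-family scaffold that binds YAP at cell junctions and is itself induced by YAP. It read 542, 549.6 and 533 CPM for Ctrl against 429, 433 and 449 CPM for Chaf1a cko. The groups were clearly apart, with within-group coefficients of variation of 1.52% and 2.42%. Its fitted log2 fold change came to -0.31 (SE 0.04, 95% interval -0.40 to -0.22, adjusted p 0.000336 in edgeR), and it stayed between -0.33 and -0.30 with any 1 library left out. Its paralog Amotl1 (Entrez gene 75723, chromosome 9 from 14541966 to 14662974) read 468, 459 and 438 CPM for Ctrl against 466, 474 and 458 CPM for Chaf1a cko. Those ranges overlapped, and the log2 fold change of Amotl1 was 0.03 with a 95% interval from -0.06 to 0.13. The intervals of the 2 paralogs do not meet, but the difference between them was not tested.

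Ccn2 (Entrez gene 14219, chromosome 10 from 24595442 to 24598683) encodes connective tissue growth factor, a matrix protein of fibrosis. It read 235, 258 and 237 CPM for Ctrl against 192, 216 and 203 CPM for Chaf1a cko. All Chaf1a cko libraries were lower than all Ctrl libraries, though the highest of the former and the lowest of the latter were close. For Ccn2 the fitted log2 fold change came to -0.26 (SE 0.06, 95% interval -0.38 to -0.13, adjusted p 0.0403 in edgeR). This call rested on all 6 libraries: leaving out any 1 of them, in either group, gave adjusted p-values from 0.0619 to 0.245 with values from -0.30 to -0.22. It was also lost without the filter on low counts (adjusted p 0.0556). In the annotation an antisense transcript, Gm15270, overlaps exons of Ccn2, and since no source used here gives the strand setting of the counting, their reads cannot be told apart.

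**Figure D2:**
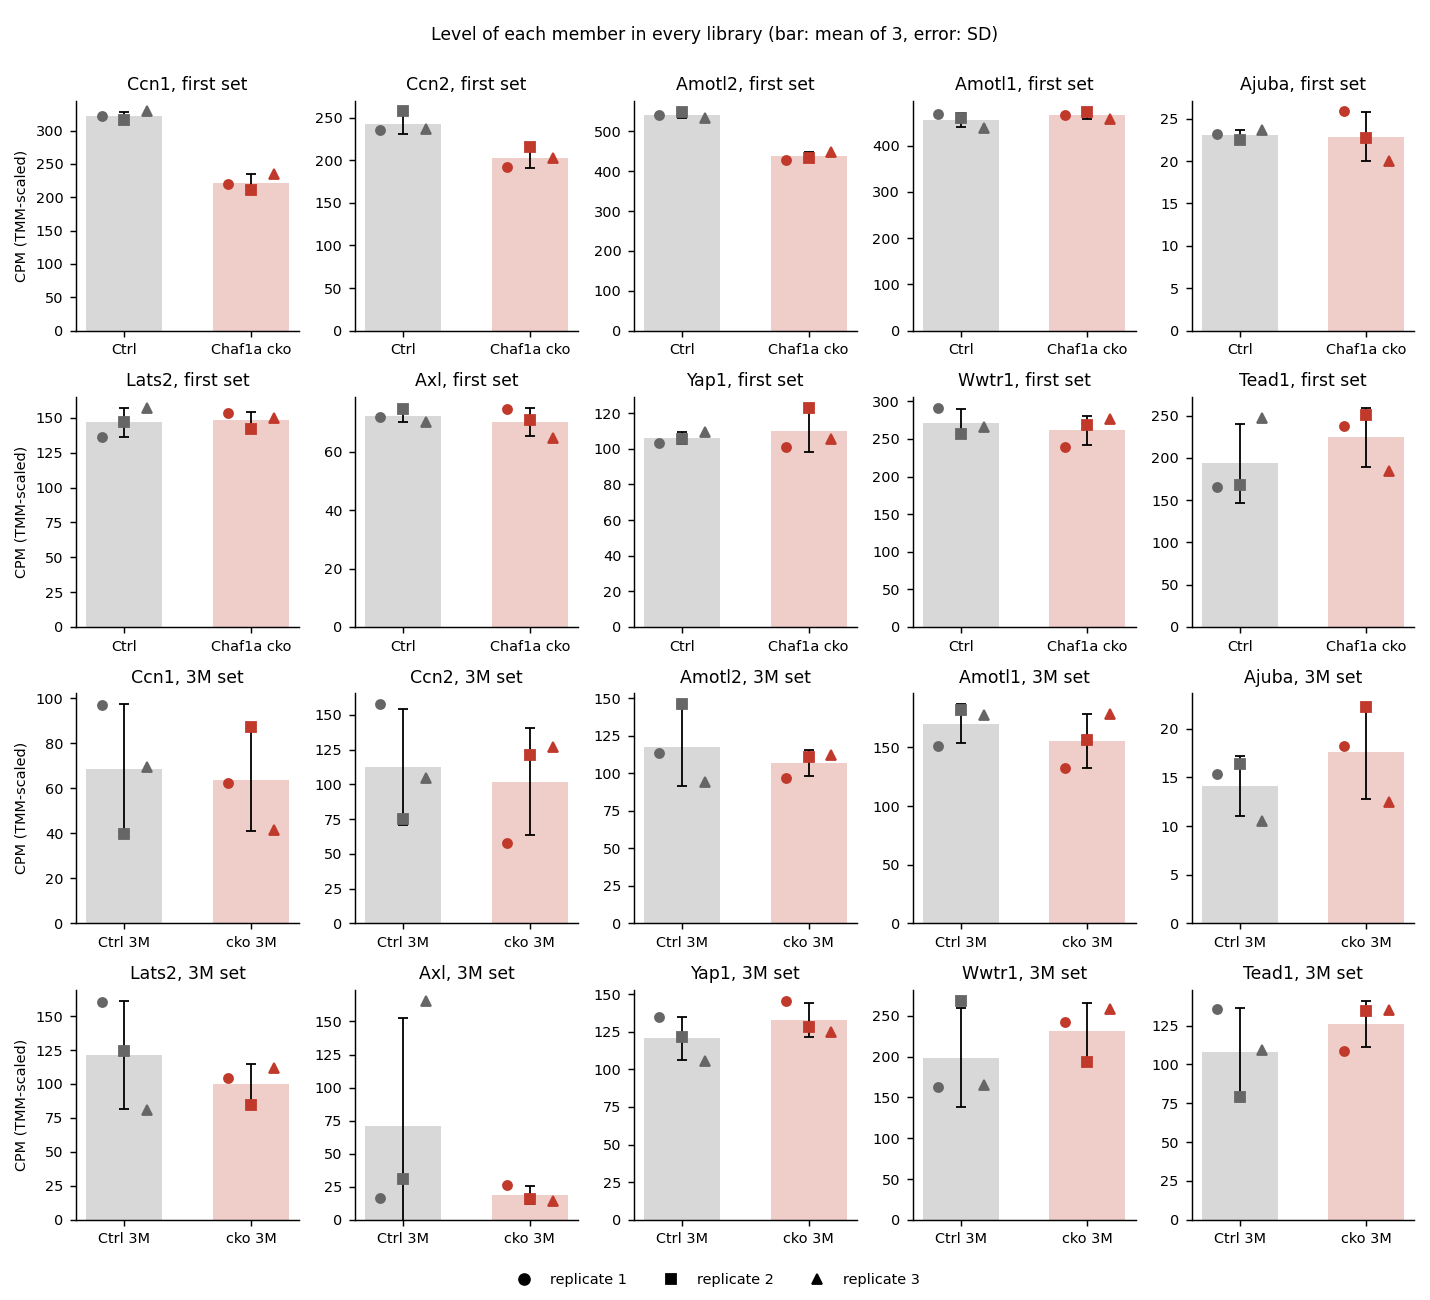
CPM (scaled by TMM, y axis from 0) of the 10 members in each library, with 2 rows of panels for the first set and 2 for the 3M set; bars are means of 3, error bars are SD and are cut off at 0 for Axl in Ctrl 3M. Ccn1, Ccn2 and Amotl2 separate the groups in the first set, Tead1 splits the libraries without regard to group, and Axl is high in 1 Ctrl 3M library.

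The remaining target and feedback genes did not separate the groups of the first set. Lats2 (Entrez gene 50523, chromosome 14 from 57689662 to 57746212), the kinase that inactivates YAP, ran from 136 to 157 CPM in Ctrl and from 142 to 153 CPM in Chaf1a cko. Its log2 fold change was 0.02 (95% interval -0.12 to 0.16), and the annotated gene Gm49361 shares exons with it on the same strand, so its count is uncertain. Ajuba (Entrez gene 16475, chromosome 14 from 54567469 to 54577661), a LIM protein that inhibits LATS kinases, was low, at 22.5 to 23.6 CPM (Ctrl) and 20.03 to 25.9 CPM (Chaf1a cko). That gave -0.02 with a wide interval from -0.33 to 0.30. Axl (Entrez gene 26362, chromosome 7 from 25756500 to 25788924), a receptor tyrosine kinase for the ligand GAS6, lay at 70.4 to 74.6 CPM (Ctrl) and 64.9 to 74.6 CPM (Chaf1a cko), or -0.04 (-0.23 to 0.14).

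Transcripts of the coactivators and of Tead1 showed no call either. Yap1 (Entrez gene 22601, chromosome 9 from 7931999 to 8004638) read 103, 106 and 109 CPM for Ctrl against 101, 123 and 106 CPM for Chaf1a cko. One Chaf1a cko library, replicate 2, stood above the other 5, and the log2 fold change was 0.05 (95% interval -0.12 to 0.22). The antisense transcript Gm20416 overlaps exons of Yap1, with the same limit as for Ccn2. Wwtr1 (Entrez gene 97064, chromosome 3 from 57455644 to 57575910), which encodes TAZ, read 291, 257 and 266 CPM for Ctrl against 239, 268 and 276 CPM for Chaf1a cko. The groups overlapped, with a log2 fold change of -0.06 (-0.19 to 0.08). YAP and TAZ are regulated mainly through phosphorylation and location, which transcript counts do not measure.

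Tead1 (Entrez gene 21676, chromosome 7 from 112679356 to 112906784) was the member with the largest spread in the first set. Ctrl replicates 1, 2 and 3 read 166, 168 and 247 CPM, against 237, 251 and 185 CPM for the Chaf1a cko replicates in the same order. The low libraries were Ctrl replicates 1 and 2 and Chaf1a cko replicate 3, and the high ones Ctrl replicate 3 and Chaf1a cko replicates 1 and 2, so the split crossed the groups. Its within-group coefficient of variation of 19.7% compares with a median of 4.88% over 807 genes within 1.5-fold of its level, which places it at percentile 97.4 of them. The log2 fold change was 0.21 (95% interval -0.41 to 0.83, adjusted p 0.863 in edgeR), and it ran from 0.11 without Ctrl replicate 1 to 0.43 without Ctrl replicate 3 over the 6 fits that leave out 1 library. It was 0.12 when replicate 2 of either group was left out, and 0.33 when Chaf1a cko lacked replicate 3. In the 3M set Tead1 was not unusual in this way, at 19.4% against a median of 18.3%. Wwtr1 was at percentile 83.9 of genes of like level in the first set, and each of the remaining 8 members at or below percentile 68.2.

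In the 3M set no member passed the test, and no member had an unadjusted p under 0.05 in edgeR or an adjusted p under 0.05 in DESeq2. The test there called 2 of 13925 genes (0.0144%), and 965 of the 13925 had an unadjusted p under 0.05. The CPM ranges of the groups overlapped for all 10 members, while 14.1% of the genes tested had ranges apart. The spread was much wider than in the first set: the median coefficient of variation over the members reached 28.3% (Ctrl 3M) and 14.8% (Chaf1a cko 3M), against 3.23% in Ctrl and 6.40% in Chaf1a cko. Standard errors of the members' log2 fold changes were 0.19 to 0.92 in the 3M set and 0.04 to 0.23 in the first set. Falls of the size seen for Ccn1, Amotl2 and Ccn2 in the first set lie inside the 3M intervals of the same genes.

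Ccn1 read 96.8, 39.5 and 69.5 CPM for Ctrl 3M against 62.5, 87.1 and 41.6 CPM for Chaf1a cko 3M. The highest and the lowest library of one group lay close to those of the other, and the log2 fold change was -0.11 (95% interval -0.96 to 0.75). Ccn2 read 158, 75.2 and 105 CPM for Ctrl 3M against 57.7, 121 and 127 CPM for Chaf1a cko 3M, or -0.14 (-0.98 to 0.70). The libraries low in Ccn1 and in Ccn2 were not all the same: Chaf1a cko 3M replicate 3 was low in Ccn1 and the highest of its group in Ccn2. Amotl2 read 113, 146 and 94.1 CPM for Ctrl 3M against 97.0, 111 and 112 CPM for Chaf1a cko 3M, or -0.14 (-0.62 to 0.34).

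Axl had the largest fitted difference of the members in the 3M set, and 1 library carried it. Ctrl 3M replicates 1, 2 and 3 read 16.8, 30.8 and 165 CPM, and the Chaf1a cko 3M libraries 26.4, 15.6 and 14.5 CPM. Ctrl 3M replicate 3 stood far above the other 5 libraries, while the other Ctrl 3M libraries lay within or close to the range of Chaf1a cko 3M. Its fitted log2 fold change came to -1.92 (SE 0.92, 95% interval -4.21 to 0.38, adjusted p 0.754 in edgeR), and without that library it was -0.35. The spread of Axl was at percentile 99.4 of 3015 genes of like level. In the same library the fibroblast marker Dcn, which encodes decorin, was at 1110.2 CPM, against 204 and 609 CPM in the other Ctrl 3M libraries and 585 to 658 CPM in Chaf1a cko 3M. The 13 fibroblast markers, of which Dcn is 1, summed to 3545 CPM in it and to 2342 to 2820 CPM in the other 5. That sum includes the high Dcn value and is not separate from it. No sum without Dcn was taken, and the part of these cells in the Axl value was not tested.

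The remaining members overlapped between the 3M groups. Lats2 read 160.1, 124 and 80.7 CPM for Ctrl 3M against 105, 84.3 and 112 CPM for Chaf1a cko 3M, or -0.28 (95% interval -0.88 to 0.33). Amotl1 ran from 151 to 181 and from 132 to 179 CPM (-0.13, interval -0.57 to 0.31), and Ajuba from 10.5 to 16.4 and from 12.5 to 22.2 CPM (0.32, interval -0.42 to 1.06). All 3 of these regulators of YAP had ranges that overlapped between the groups. Yap1 was at 106 to 135 CPM in Ctrl 3M and 125 to 146 CPM in Chaf1a cko 3M (0.14, interval -0.28 to 0.56), Wwtr1 at 163 to 269 and 193 to 259 CPM (0.22, interval -0.35 to 0.78), and Tead1 at 79.2 to 136 and 109 to 135 CPM (0.22, interval -0.31 to 0.75). Summed markers of 3 cell type lists did not overlap between the 3M groups: the 13 cardiomyocyte markers summed to 35079 to 44801 CPM in Ctrl 3M and 54340 to 56329 CPM in Chaf1a cko 3M, and the 11 macrophage markers to 463 to 542 and 292 to 359 CPM. The 10 epicardium and mesothelium markers summed to 76.1 to 140.2 and 30.6 to 53.3 CPM, with Upk3b and Msln at 0 in all libraries and a median log2 fold change of -1.48 over the 4 that could be tested. Of these last, Wt1, a transcription factor of the epicardium, had -1.91 (adjusted p 0.416 in edgeR and 0.00115 in DESeq2). No marker of the 3 lists passed the test in the 3M set with edgeR, where 4, 5 and 1 of them had an unadjusted p under 0.05, and DESeq2 called 0, 1 and 1. Their part in the members' values was not tested.

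An interaction term over all 12 libraries asked whether effects differed from set to set. Of the 10 members 0 passed, with 0 at an unadjusted p under 0.05. Over all 22803 genes 15 (0.0658%) were called, and 2160 had an unadjusted p under 0.05. For Ccn1 the effect in the 3M set minus that in the first set came to 0.47 (SE 0.42, 95% interval -0.46 to 1.41, adjusted p 0.896 in edgeR). For Amotl2 it was 0.20 (-0.24 to 0.65) and for Ccn2 0.15 (-0.75 to 1.06). The calls of the first set are thus not shown to be absent from the 3M set. Axl had the smallest p of the members, with a difference of -1.83 (-3.80 to 0.14) that was -0.27 without Ctrl 3M replicate 3.

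**Figure D3:**
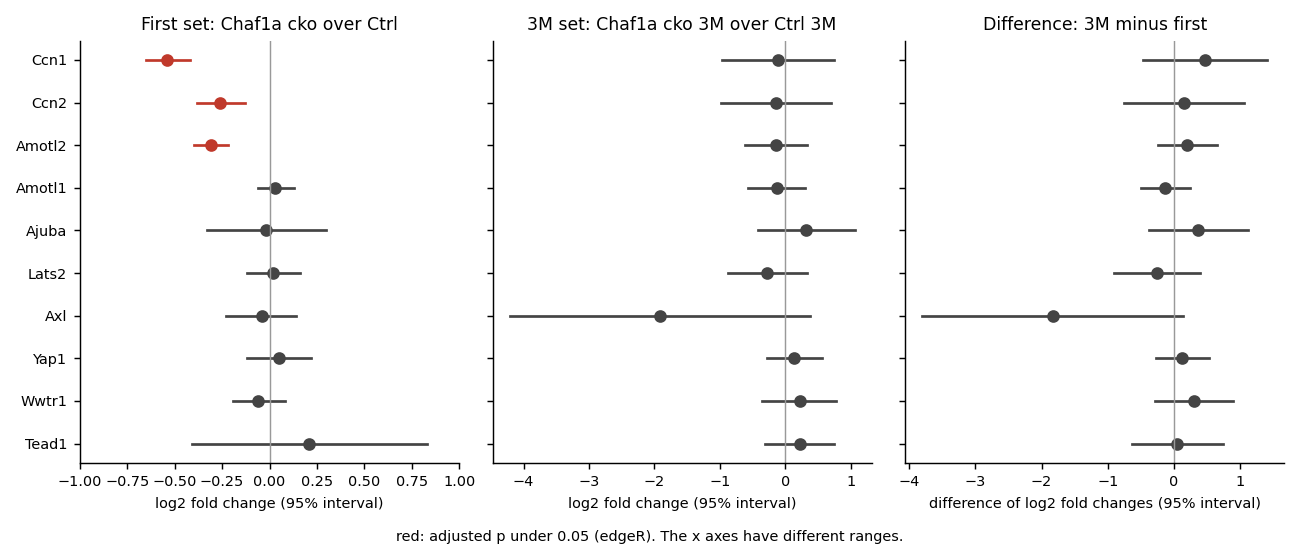
Log2 fold change of Chaf1a cko over Ctrl (points) with 95% intervals (lines) for the 10 members in the first set, in the 3M set, and their difference, with x axes of different range. Only Ccn1, Ccn2 and Amotl2 of the first set are past the threshold (red), and their 3M intervals reach both sides of 0.

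Levels were ordered per exon length, in CPM per kb of the union of annotated exons, which counts every annotated isoform. In Ctrl of the first set the order was Ccn1 (160 ± 3.08 CPM per kb), Amotl2 (86.1 ± 1.31), Ccn2 (85.1 ± 4.31), Wwtr1 (56.8 ± 3.73), Amotl1 (45.2 ± 1.57), Lats2 (21.05 ± 1.497), Axl (14.4 ± 0.423), Tead1 (14.3 ± 3.43), Yap1 (11.5 ± 0.343) and Ajuba (6.34 ± 0.156; SD, n = 3). Among neighbours in this order only Amotl2 with Ccn2 and Axl with Tead1 had overlapping ranges. In Chaf1a cko the same genes led, with Ccn1 at 110 ± 6.25, Ccn2 at 71.1 ± 4.15 and Amotl2 at 69.5 ± 1.68 CPM per kb. TAZ transcripts thus stood above YAP transcripts in the first set, 56.8 against 11.5 CPM per kb in Ctrl and 54.7 against 11.9 in Chaf1a cko, with no overlap between the genes' ranges in either group. The same order of this pair held within the 3M table, at 41.6 ± 12.6 against 13.0 ± 1.56 CPM per kb in Ctrl 3M and 48.4 ± 7.12 against 14.3 ± 1.20 in Chaf1a cko 3M. There Wwtr1, Ccn2 and Ccn1 were the highest 3 members in both groups, with ranges that overlapped between neighbours. Ajuba was the lowest member in 3 of the 4 groups and Axl in Chaf1a cko 3M, with no comparison of levels made across the 2 tables.

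**Figure D4:**
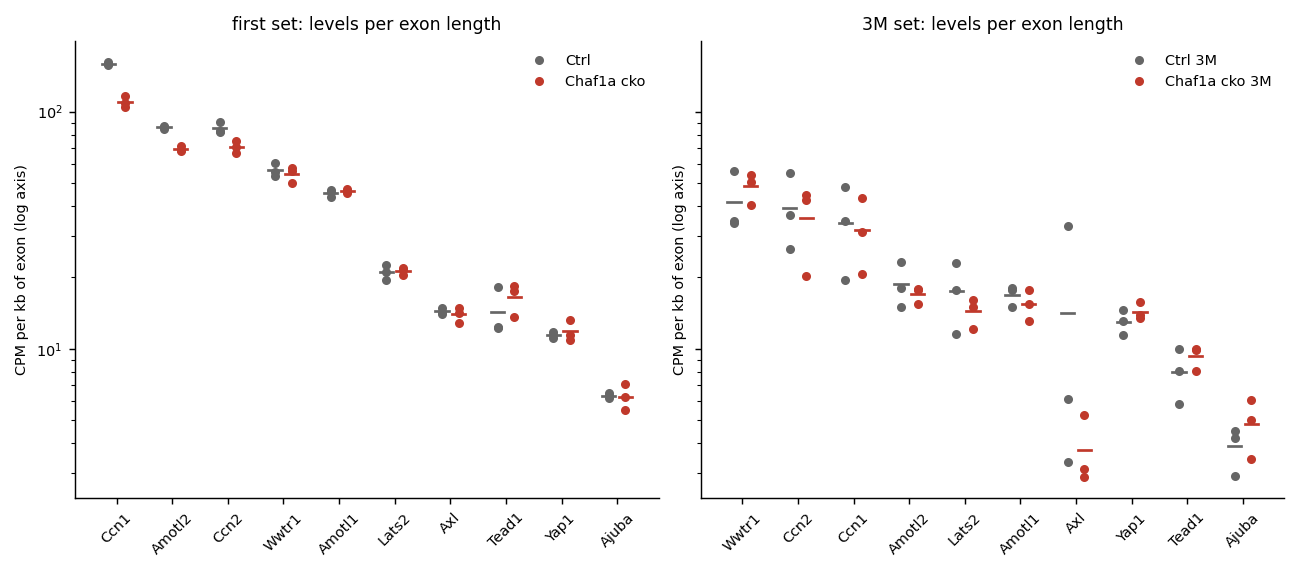
Level of each member in CPM per kb of exon on a log axis, ordered by the control mean, with 1 point per library and a line at the group mean. In the first set Ccn1 lies highest and drops from 160 to 110 CPM per kb, and in the 3M set Axl spans a wide range in Ctrl 3M.

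The wider pathway was read from 3 lists, each taken whole and counted in both directions. Their counts in the first set stand beside 1.18% of all genes tested called in either direction and 0.435% called lower. Of 28 Hippo kinases and upstream regulators 0 rose and 2 fell in the first set, Amotl2 and Frmd6, with a list median log2 fold change of 0.00. Frmd6 encodes a FERM-domain protein that activates the Hippo kinases, and it read 107, 107 and 96.5 CPM for Ctrl against 72.0, 72.3 and 80.8 CPM for Chaf1a cko. The groups did not overlap, with a log2 fold change of -0.46 (SE 0.08, adjusted p 0.00583 in edgeR). The core kinases Stk3, Stk4 and Lats1 gave 0.12, -0.09 and -0.16. The adaptors Sav1 and Mob1a gave 0.19 and 0.23, the adaptor Mob1b -0.19, and the upstream tumour suppressor Nf2 0.07. None of these passed.

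Of the 10 YAP, TAZ, TEAD and VGLL factors 0 passed in either direction in the first set, and DESeq2 called 0. An unadjusted p under 0.05 in edgeR was found for 1 of them, against 2326 of all 22965 genes tested. That factor was Tead4, with means of 13.5 ± 2.68 CPM (Ctrl) and 18.7 ± 1.82 CPM (Chaf1a cko; SD, n = 3) (0.47, adjusted p 0.384 in edgeR), and the list's median was 0.11. Of 24 YAP and TAZ targets 0 rose and 3 fell, the 3 members above, and the list's median was -0.08 with 17 of 24 fitted values below 0. Among the other targets Tgfb2, a growth factor of the TGF-beta family, had -0.37 (adjusted p 0.0952) and Crim1 -0.26 (adjusted p 0.102) in edgeR, both with ranges apart, and DESeq2 called both, at adjusted p-values of 0.0126 and 0.0183. Ankrd1, a cardiac stress gene and a classical YAP target, read 386, 372 and 369 CPM for Ctrl against 378, 403 and 369 CPM for Chaf1a cko, or 0.03 with an interval from -0.07 to 0.13. Over the 46 pathway genes outside the 10 members 0 rose and 1 fell in edgeR, while DESeq2 called 4, all lower: Frmd6, Tgfb2, Crim1 and Fat4. TEAD cores were in the promoters of 3 of the 11 non-member targets with an entry, namely Ankrd1, Crim1 and Ptpn14.

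In the 3M set none of the 42 pathway genes outside the members that could be tested passed in edgeR, and DESeq2 called 0. An unadjusted p under 0.05 was found for 2 of the 42, against 965 of all 13925 genes tested. Those 2 were Gadd45a, a DNA damage gene, at 6.75, 10.6 and 6.23 CPM in Ctrl 3M and 12.3, 12.3 and 18.5 CPM in Chaf1a cko 3M, and Lats1, at 261, 94.7 and 120.2 CPM in Ctrl 3M and 86.0, 97.5 and 73.9 CPM in Chaf1a cko 3M. The groups overlapped for Lats1, and Ctrl 3M replicate 1 stood far above all other libraries. Frmd6 read 67.0, 50.03 and 79.8 CPM (Ctrl 3M) and 61.0, 87.5 and 74.7 CPM (Chaf1a cko 3M), which overlap. Ankrd1 ranged from 273 to 1471 CPM in Ctrl 3M and from 522 to 1143 CPM in Chaf1a cko 3M. It was lowest in Ctrl 3M replicate 2, the library in which Ccn1 and Ccn2 were also the lowest of their group. The targets Amotl2 (146 CPM), Amotl1 (181 CPM) and Ajuba (16.4 CPM) were instead the highest of their group in that library.

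**Figure D5:**
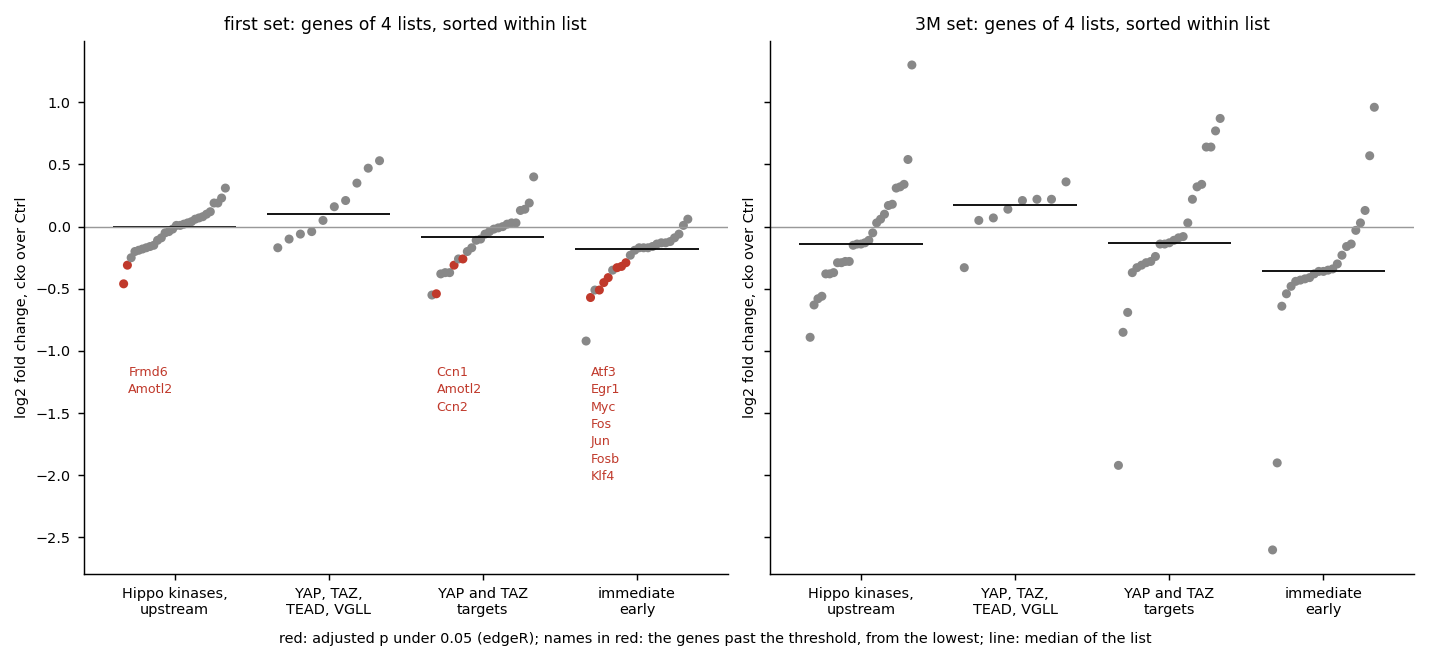
Log2 fold change of Chaf1a cko over Ctrl (y axis) for the tested genes of 4 lists, sorted within each list, in the first set (left) and the 3M set (right), with a line at each list's median. Genes past the threshold are red and named: Ccn1, Ccn2, Amotl2, Frmd6 and 7 immediate early genes, all lower and all in the first set.

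Some immediate early genes and fibroblast markers fell in the first set, as Ccn1 did. Of 24 immediate early genes 0 rose and 7 fell, with a median log2 fold change of -0.18 and with 13 genes whose ranges lay apart and lower. Over all genes tested in the first set 1.18% were called, 0.435% were called lower, and 7.85% lay apart and lower. The counts of the other lists below stand beside the same shares. Fosl2 and Ier3, at 0.06 and 0.01, had fitted values above 0, and the other 22 were below it. Egr1 read 464, 481 and 461 CPM for Ctrl against 318, 325 and 341 CPM for Chaf1a cko (-0.51, adjusted p 4.6e-06 in edgeR). Fos, the partner of Jun in the AP-1 factor, had 551, 564 and 582 CPM (Ctrl) and 406, 428 and 440.5 CPM (Chaf1a cko), or -0.41. Atf3, a stress-induced factor, had the largest fall of the 7, at -0.57, and Jun had -0.33. The 24 genes summed to 5163 to 5315 CPM (Ctrl) and 4222 to 4361 CPM (Chaf1a cko). Of 13 fibroblast markers 0 rose and 5 fell, among them the collagen genes Col1a1 at -0.39, Col1a2 at -0.36 and Col3a1 at -0.23, and Dcn at -0.65. DESeq2 called 7 of them, 6 lower and 1 higher; the higher one was Tcf21, a fibroblast transcription factor, with 0.63 and ranges apart (adjusted p 0.177 in edgeR and 0.0424 in DESeq2). The list summed to 4270 to 4284 CPM (Ctrl) and 3493 to 3594 CPM (Chaf1a cko), with no marker at 0. Of 12 endothelial markers 0 passed in edgeR, 5 had an unadjusted p under 0.05 and DESeq2 called 1, with sums of 3536 to 3721 and 3471 to 3554 CPM. Of 10 mural and smooth muscle markers 2 rose and 1 fell, with sums of 1303 to 1352 and 1570.0 to 1618 CPM. Of 13 cardiomyocyte markers 3 rose and 5 fell, with sums of 119173 to 121382 and 111865 to 116287 CPM. Of 10 epicardium and mesothelium markers 1 rose, the keratin gene Krt18, with sums of 139 to 140.5 and 143 to 157 CPM. The part of these cells and of the immediate early response in the falls of Ccn1, Amotl2 and Ccn2 was not tested. In the 3M set 0 of 23 tested immediate early genes passed in edgeR, with 2 at an unadjusted p under 0.05, Fos and Egr3, both of which DESeq2 called lower.

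The genes whose log2 CPM followed Ccn1 most closely over the 6 libraries of the first set, among 5334 genes of mean log2 CPM of at least 5, were Dcn, Myl4, Nr2f2, Mlip and Rasl11b. Amotl2 stood at rank 11 and Ccn2 at rank 211 in this order. The libraries of the first set fall into 2 groups for Ccn1, so the ranking mostly follows the gap between groups and no coefficient is given. All 5 genes had ranges that lay apart and lower in Chaf1a cko; Myl4, an atrial myosin light chain, read 342, 335 and 329.8 CPM for Ctrl against 221, 215 and 234 CPM for Chaf1a cko. In the 3M set the nearest genes among 6158 were Nap1l4, Psma4, Cox8a, Rabggtb and Slmap, with Pearson's r of 0.97 to 0.99 over 6 libraries that share library and depth. These values are high by the choice of the top 5 among 6158 genes, so they show no link to Ccn1. Nap1l4 itself varied little, from 113 to 124 CPM. None of the first 5 was shared between the sets. The members that were ranked stood far down in the 3M set, with Tead1 at rank 755 and Ccn2 at rank 1255 as the nearest 2. Ajuba and Axl lay below the level needed for the ranking there.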

How the data were processed

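The authors deposited whole-number gene counts, per gene symbol and library and without normalization, in 2 tables of 6 libraries. Per the labels' protocols, RNA was isolated with TRIzol and sequenced with a strand-keeping kit that removes ribosomal RNA. The submitters' processing notes name FastQC, Trimmomatic, HISAT2 and the mm10 build. How reads were counted (program, annotation, strand) is not given there or in the labels.

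Tests ran in edgeR 4.0.16 under R 4.3.3, separately for each table: filterByExpr (minimum count 10, minimum total 15), TMM scaling, glmQLFit with robust estimation and glmQLFTest, two-sided, with Benjamini-Hochberg adjustment over all genes tested and a threshold of 0.05. The difference between sets was the interaction in a fit of all 12 libraries. Standard errors are the log2 fold change divided by the root of the F statistic, and intervals are 95%. CPM values are TMM-scaled, except summed marker levels, which use library totals; likeness to Ccn1 is Pearson's r of log2(CPM + 1). Depth ran from 10569325 to 20896673 counts, and errors hold counting noise and the spread between libraries. Exon lengths are from GENCODE M21 (GRCm38), and names, coordinates and promoters from RefSeq GRCm38.p6; 25041 of 25239 symbols (99.2%) matched RefSeq and 97.9% had a length. The tests were also run on simulated counts drawn at the fitted trend of spread. Spread particular to a gene, such as that of Tead1 or Axl, was not part of them, and no result here rests on that run.

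Samples were grouped by title. The members, gene lists and rules were chosen with earlier results of these data known. Named were all members, Chaf1a, list genes past the threshold (up to 4 by smallest p) and leading cell type markers. The 5 genes most like Ccn1 were named as well. Picked with their values in view were the core kinases, Sav1, Mob1a, Mob1b, Nf2, Tead4, Tgfb2, Crim1, Ptpn14, Ankrd1, Gadd45a, Lats1, Fat4, Fosl2 and Ier3. So were Tcf21, Wt1, Upk3b, Msln, Ddx3y, Krt18, Dcn as a marker and the 3M values of Frmd6, Fos and Egr3. The alternatives were DESeq2 1.42.0 size factors and Wald test, library size alone, other filters, a replicate block and leaving out each library.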

Additional observations from a re-analysis of the deposited data

How the results depend on the processing

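The falls of Ccn1 and Amotl2 in the first set kept their direction and their call under all 12 alternatives. Ccn2 kept its direction in all 12 and its call in 5, being lost without the filter (-0.26) and with any 1 library left out. Members called in the first set numbered 2 in each fit without 1 library, and 0 in every alternative run for the 3M set and for the difference between sets, for which neither the Wald test nor a fit without the filter was run. Genes called in the first set numbered 128 to 201 with 1 library left out, which was over 1.5 times fewer than 270 for each library but Ctrl replicate 1, and 483 with DESeq2's Wald test. With the filter at 10 CPM the split of 170 higher and 100 lower became 191 and 175. In the 3M set the 2 calls became 0 to 5 with 1 library left out, 72 with the Wald test, 6 without the filter and 0 with the replicate block. Calls for the difference between sets went from 15 to 1 to 110 with 1 library left out, 7 with library size alone, 8 with the filter at 10 CPM and 0 with the replicate block. With the replicate block 192 genes were called in the first set and Ccn1, Amotl2 and Ccn2 kept their calls. Same-numbered libraries did not deviate together (correlations from -0.05 to 0.08 over genes), so the number is not taken as a pairing. Signs of members that did not pass turned in some fits, for example Lats2 in the first set under 2 scalings or filters and Ccn1 in the 3M set without Ctrl 3M replicate 1 (0.23). The spread between libraries limits all members in the 3M set.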
